A study of Mus musculus with 160 samples.

Results

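The 8 genes described here encode the terminal arm of complement and the main receptor of its released fragment: Hc (complement C5), C6, C7, the 3 chains of C8 (C8a, C8b and C8g), C9 and C5ar1. They were taken by name, as 8 of the 56980 gene identifiers in the deposited tables, and all 8 passed the filter on low counts in each of the 5 tissues. Bulk RNA sequencing of 35 male mice of the inbred strains A/J, DBA/2J, C57BL/6J and SJL gave 160 libraries. All mice ate chow until 12 weeks of age. They then received for 6 weeks a mouse version of a Mediterranean, vegetarian, vegan or American human diet, with the same energy and macronutrients in every diet, and at 18 weeks the liver, the quadriceps muscle and 3 fat depots (brown, subcutaneous and visceral) were taken. Each tissue had 32 libraries, with 8 mice per strain, 8 per diet and 2 per combination of strain and diet. A/J and DBA/2J are known to lack functional C5, while C57BL/6J and SJL have it. There are 2 strains of each kind, so the state of Hc cannot be told apart from the other genetic differences between these strains. Reads of the strains other than C57BL/6J had been aligned with a relaxed mismatch penalty, so a comparison of strains is also one of alignment settings.

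Complement is a cascade of plasma proteins, most of them made by hepatocytes. When C5 is cleaved, the small fragment C5a leaves and signals through C5aR1 on neutrophils, monocytes and macrophages, while the large fragment C5b binds C6 and then C7, which brings the complex to a membrane. C8 inserts into the membrane and C9 polymerises into the pore of the membrane attack complex, so without C5 neither the signal of C5a nor the pore is formed by this route.

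The known C5 deficiency allele lacks a pair of bases in an early exon of Hc, and the reference sequence of that exon is shown because the grouping of the strains rests on it. The exon is the sixth of 41 in the canonical transcript, at chr2:34933200-34933282 on the minus strand of GRCm39, and has 83 bases. The capitals in the first line mark the TA pair at bases 62 and 63 of the exon (chr2:34933220-34933221), which the deficiency allele is known to lack. In the second line the pair has been removed from the reference sequence, and the capitals mark the TGA stop codon that is then read in frame, starting at base 4 after the point of the deletion. These lines are reference sequence; the genotype of the mice was not read from the deposited files.
Hc exon, reference: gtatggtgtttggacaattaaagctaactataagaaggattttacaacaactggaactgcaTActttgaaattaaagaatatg
Hc exon, pair removed: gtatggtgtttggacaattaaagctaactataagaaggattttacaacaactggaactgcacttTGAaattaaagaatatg

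Promoters of the 8 genes were searched because 6 of them were highest in liver, in the 250 bases before the start of the canonical transcript and on both strands. GTTAAT, the core letters bound by the hepatocyte factor HNF1, were found before Hc, C6, C7, C8a and C8b, and before 6.28% of 21770 promoters of protein-coding genes. The C/EBP letters TTGCNNAA were found before C6 and C9 (9.34% of all promoters), TATAAA before Hc and C7 (11.9%), and the HNF4 letters CAAAGTCCA before none of the 8 (0.37%). C7, which was lowest in liver, thus carried the same letters as 4 of the liver genes, and C8g and C5ar1 carried none of these letters. A match of letters is a description of the sequence and not of binding. The promoters of Hc (chr2:34951451-34951700, minus strand) and C6 (chr15:4756275-4756524, plus strand) are printed from GRCm39 because these genes differed most between strains; capitals mark the matches, which do not overlap, and ATTAAC is GTTAAT read on the other strand.
Hc promoter: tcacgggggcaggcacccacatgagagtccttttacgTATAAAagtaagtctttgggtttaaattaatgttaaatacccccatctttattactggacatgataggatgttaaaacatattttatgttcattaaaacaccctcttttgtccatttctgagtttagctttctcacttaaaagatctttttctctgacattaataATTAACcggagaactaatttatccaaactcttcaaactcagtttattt
C6 promoter: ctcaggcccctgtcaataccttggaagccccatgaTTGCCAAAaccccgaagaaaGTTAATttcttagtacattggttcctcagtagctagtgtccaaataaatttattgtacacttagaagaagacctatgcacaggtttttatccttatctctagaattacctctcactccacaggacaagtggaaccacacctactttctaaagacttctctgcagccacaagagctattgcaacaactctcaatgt

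On GRCm39 the genes lie on 4 chromosomes. Hc (ENSMUSG00000026874) spans chr2:34873343-34951453 on the minus strand, and C8g (ENSMUSG00000015083) spans chr2:25388657-25391771 on the same strand. C6 (ENSMUSG00000022181, chr15:4756525-4844580, plus strand), C7 (ENSMUSG00000079105, chr15:5017233-5093252, minus strand) and C9 (ENSMUSG00000022149, chr15:6474795-6547009, plus strand) are neighbours on chromosome 15. C8a (ENSMUSG00000035031, chr4:104672876-104733614, minus strand) and C8b (ENSMUSG00000029656, chr4:104623328-104662573, plus strand) adjoin each other on chromosome 4. C5ar1 (ENSMUSG00000049130) is at chr7:15980668-15993465 on the minus strand. The counting is not stated to have used strand, and 2 overlaps bear on the values. C8g shares 1036 bases with Fbxw5 on the opposite strand, and Hc shares 30116 bases with the antisense transcript Gm13449.

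Library totals ranged from 18.0 to 54.8 M counts. Liver transcripts appeared unevenly in the other tissues, measured by Alb, the serum albumin gene of hepatocytes. As a share of its liver mean, Alb ranged from 0.0105% to 42.8% in muscle, 0.00201% to 21.4% in brown fat, 0.0206% to 54.4% in subcutaneous fat and 0.011% to 62.2% in visceral fat. It exceeded 1% in 21, 8, 10 and 22 of the 32 libraries of these tissues. The visceral library of SJL mouse 50 lacked Wt1, a gene of the visceral lining, and the subcutaneous library of A/J mouse 24 was low in Hoxc10. With these, 8 muscle, 4 brown, 5 subcutaneous and 10 visceral libraries were over 10% of liver Alb or against their depot, and results outside liver are given with and without them.

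The pore-forming members and Hc were liver genes in these data. Levels are the authors' TPM, a share of the library's transcripts scaled for gene length. In liver, C9, the pore subunit, averaged 741 TPM, C8a 650.0 TPM, C8g 568 TPM, C8b 332 TPM, Hc 240.0 TPM and C6 174 TPM (n = 32 each). The corresponding medians outside liver were between 0.177 and 7.22 TPM for Hc and between 0.422 and 37.3 TPM for C6. In edgeR's quasi-likelihood test over all 160 libraries, 6 of the 8 genes were higher in liver than in the mean of the other 4 tissues, where 38.9% of the 21166 genes tested were higher and 88.8% were called in either direction. At an adjusted p under 0.05 a call of this kind was therefore common, and the sizes say more than the count. The log2 difference was 5.09 for C8b, 4.98 for C8a, 4.87 (SE 0.479) for Hc, 4.81 for C9, 4.59 for C8g and 4.03 for C6.

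These differences were larger against libraries low in Alb. Without the libraries over 1% of liver Alb, Hc in liver exceeded muscle, brown, subcutaneous and visceral fat by 7.91, 10.57, 8.92 and 8.94 log2 units, against 3.82, 5.98, 6.18 and 3.49 with all libraries. C6 kept a smaller distance to the white depots, at 4.84 log2 units over subcutaneous and 5.01 over visceral fat in the same libraries. C6 averaged 16.5 ± 11.6 TPM in the 22 subcutaneous and 13.8 ± 11.5 TPM in the 10 visceral libraries at or under 1% of liver Alb, where Hc averaged 1.22 ± 1.80 and 1.26 ± 1.96 TPM. C8g, a lipocalin that binds C8a, stood at 14.1 ± 2.23 TPM in the 24 such brown fat libraries and varied between 10.3 and 18.4 TPM. Its opposite-strand neighbour Fbxw5 averaged 64.3 ± 8.57 TPM in brown fat, and its part in the C8g values was not tested.

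C7 and C5ar1 ran the other way. C7, which anchors the complex in the membrane, averaged 1.48 ± 0.670 TPM in liver, 130.0 ± 53.5 TPM in visceral fat, 95.0 ± 47.1 TPM in subcutaneous fat, 17.5 ± 8.36 TPM in muscle and 9.06 ± 4.84 TPM in brown fat (SD, n = 32 each). The highest liver library had 3.73 TPM and the lowest visceral and subcutaneous libraries 48.1 and 27.3 TPM, so that liver did not overlap the white depots. C7 in liver was lower by 5.23 log2 units (SE 0.173, adjusted p = 8.65e-65) than in visceral fat (88% of all genes called) and by 2.09 (SE 0.154, adjusted p = 2.18e-27) than in brown fat (86%). Every pair of tissues differed, the closest being subcutaneous minus visceral fat at -0.65 (SE 0.143, adjusted p = 3.29e-05; 62.3% of all genes called). C5ar1 averaged 1.08 ± 0.378 TPM in liver, 20.8 ± 7.83 TPM in visceral fat, 20.1 ± 11 TPM in subcutaneous fat, 3.33 ± 1.52 TPM in muscle and 2.61 ± 0.958 TPM in brown fat. The 2 white depots overlapped widely, and brown fat lay lower than visceral fat by 2.19 log2 units (SE 0.138, adjusted p = 5.05e-33), a comparison in which 80.2% of all genes were called. These are bulk tissues, in which fewer cells of a type and less RNA per cell cannot be told apart.

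**Figure D1:**
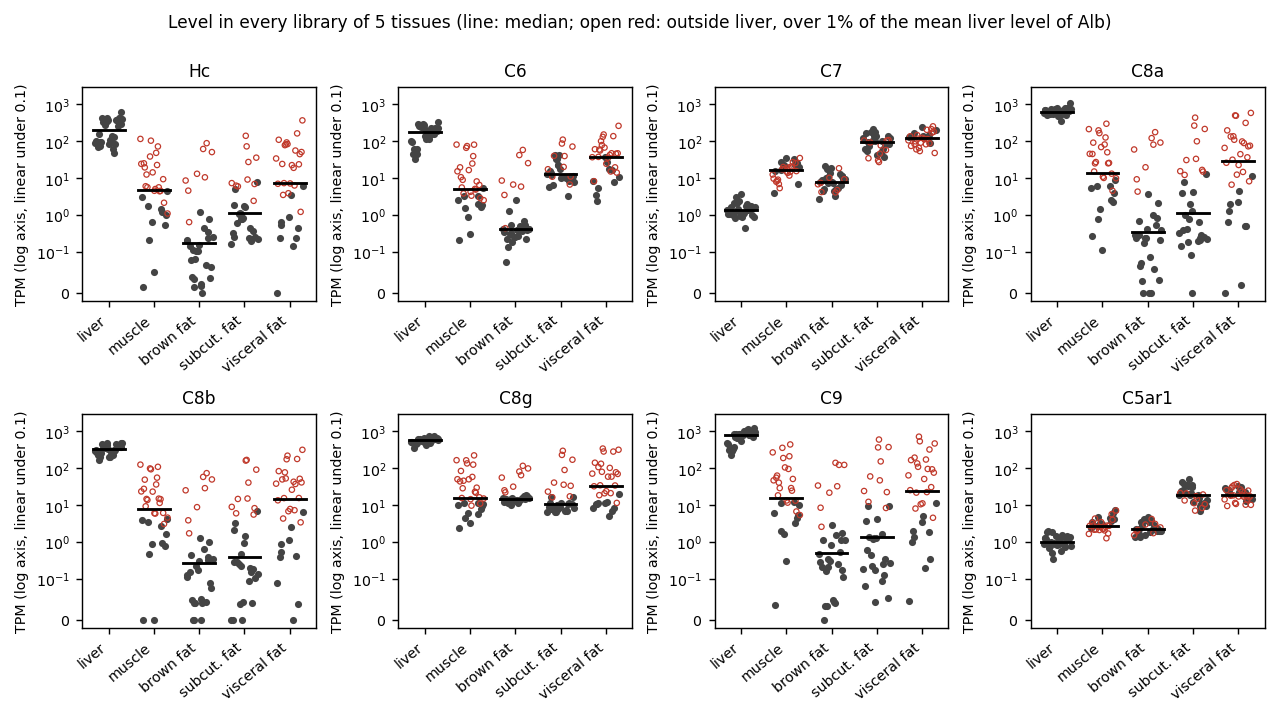
Level of each of the 8 genes in every library (TPM, log axis that turns linear under 0.1) by tissue, liver first, with a line at the median of 32 libraries. Open red points are libraries outside liver over 1% of the mean liver level of Alb, and filled points are all others. By the medians, Hc, C6, the C8 chains and C9 are highest in liver, while C7 and C5ar1 are lowest there and highest in the white depots.

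Within liver the strains differed in 6 of the 8 genes, and a call over strains was common, made for 51.5% of the 18636 genes tested. Hc, C6, C9 and C8b had ranges that set 1 or both of A/J and DBA/2J apart, while in the other 4 genes no strain lay apart from all the others. Between A/J with DBA/2J and C57BL/6J with SJL, 5 of the 8 genes were lower and none was higher, where 15.9% of all genes were lower. The median of the 8 log2 differences was -0.48, beside -0.00 over all genes tested. The median of their sizes was 0.475, beside 0.185.

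Hc, which starts the terminal sequence as C5, was the most different. It had a lowest, median and highest level of 69.1, 94.6 and 157 TPM in A/J livers and of 47.7, 91.4 and 137 TPM in DBA/2J livers, against 270.0, 369 and 435 TPM in C57BL/6J livers and 258, 388 and 638 TPM in SJL livers. All 16 livers of the C5-deficient strains lay below all 16 others, a separation in 2 of the 8 genes and in 0.662% of the 14811 genes whose mean level reached 1 TPM. The log2 difference was -1.99 (SE 0.118, edgeR adjusted p = 1.89e-14), a level 0.251 times that of C57BL/6J and SJL. Within each pair the difference was small: 0.07 (SE 0.162, adjusted p = 0.812) for A/J minus DBA/2J and -0.04 (SE 0.161, adjusted p = 0.884) for C57BL/6J minus SJL. All genes were called at 21.7% and 24.5% in these 2 comparisons. The transcript was not lost, since the lowest DBA/2J liver still had 3090 Hc counts.

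C6, the first protein to join C5b, had a second pattern. It reached 33.2, 53.2 and 101 TPM (lowest, median, highest) in A/J livers, 114, 146 and 235 TPM in DBA/2J livers, 234, 271 and 298 TPM in C57BL/6J livers and 154, 214 and 331 TPM in SJL livers. Every A/J liver lay below every liver of the other 3 strains, while DBA/2J overlapped both C57BL/6J and SJL. A/J minus the other 3 strains was -1.78 (SE 0.157, adjusted p = 2.45e-10) on the log2 scale, and A/J minus DBA/2J was -1.36 (SE 0.176, adjusted p = 4.28e-07). Calls over all genes made up 28% for A/J minus the other 3, 25.5% for DBA/2J and 26.1% for C57BL/6J. C57BL/6J was highest in C6, at 1.13 log2 units over the other 3 (adjusted p = 4.25e-08), but its difference from SJL of 0.39 was not called (adjusted p = 0.0973).

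C9, the pore subunit, separated A/J in the same way without following C5 deficiency. It stood at 232, 349 and 492 TPM (lowest, median, highest) in A/J livers, 785, 937 and 1119 TPM in DBA/2J livers, 565, 774 and 857 TPM in C57BL/6J livers and 718, 845 and 1199 TPM in SJL livers. The A/J livers did not overlap any other strain, and the other 3 strains overlapped each other. A range of A/J below or above all other livers was found for 2 of the 8 genes, C6 and C9, and for 1.03% of all genes. A/J minus the other 3 was -1.28 (SE 0.132, adjusted p = 5.7e-09), and DBA/2J was higher than its other 3 by 0.62 (SE 0.118, adjusted p = 0.000145). Hence A/J and DBA/2J, alike in Hc, differed in C9 by -1.42 log2 units (SE 0.153, adjusted p = 1.12e-08).

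The chains of C8, the protein that enters the membrane before C9, did not move as a unit. C8b had 172, 251 and 312 TPM (lowest, median, highest) in A/J livers and 198, 243 and 317 TPM in DBA/2J livers, against 341, 410 and 471 TPM in C57BL/6J livers and 367, 406 and 495 TPM in SJL livers. Like Hc, it did not overlap between the 2 pairs of strains, with a log2 difference of -0.70 (SE 0.0998, adjusted p = 1.55e-06). C8a, the chain next to it on the chromosome, averaged 608 ± 73.7 TPM in A/J and 551 ± 104 TPM in DBA/2J, against 680.0 ± 83.1 TPM in C57BL/6J and 763 ± 171 TPM in SJL (SD, n = 8 each). The ranges overlapped and the log2 difference was -0.29 (SE 0.076, adjusted p = 0.00401). C8g averaged 474 ± 60.7, 559 ± 91.1, 589 ± 47.9 and 650.0 ± 61.6 TPM in A/J, DBA/2J, C57BL/6J and SJL. It was called neither over the 4 strains (adjusted p = 0.0659) nor between the pairs (-0.25, SE 0.1, adjusted p = 0.0589), but over strains it passed with limma (adjusted p = 0.00157), with DESeq2 (adjusted p = 0.0498) and with no filter on low counts (adjusted p = 0.00926).

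C7 and C5ar1 were near their lower limit in liver, with 13 to 109 and 9 to 60 counts per library. C7 averaged 1.22 ± 0.243 TPM in A/J, 1.23 ± 0.479 TPM in DBA/2J, 2.09 ± 1.01 TPM in C57BL/6J and 1.4 ± 0.301 TPM in SJL. It passed the test over strains (adjusted p = 0.0299), with C57BL/6J higher by 0.70 (adjusted p = 0.00932), but not with limma (adjusted p = 0.0769) or in the model of all 16 combinations of strain and diet (adjusted p = 0.0516). C5ar1 averaged between 0.960 ± 0.474 and 1.23 ± 0.454 TPM and was not called (adjusted p = 0.726), although myeloid markers differed. Of 8 myeloid markers, 5 were higher in SJL liver and 5 lower in DBA/2J liver than in the other 3 strains. Of all genes 25.5% were called for DBA/2J, and the share for SJL is not reported here. Over the 4 strains, 51.5% of all genes and all 8 of these markers were called. Their summed level in liver was 143 to 194 TPM in A/J, 120.0 to 211 TPM in DBA/2J, 169 to 397 TPM in C57BL/6J and 159 to 314 TPM in SJL.

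**Figure D2:**
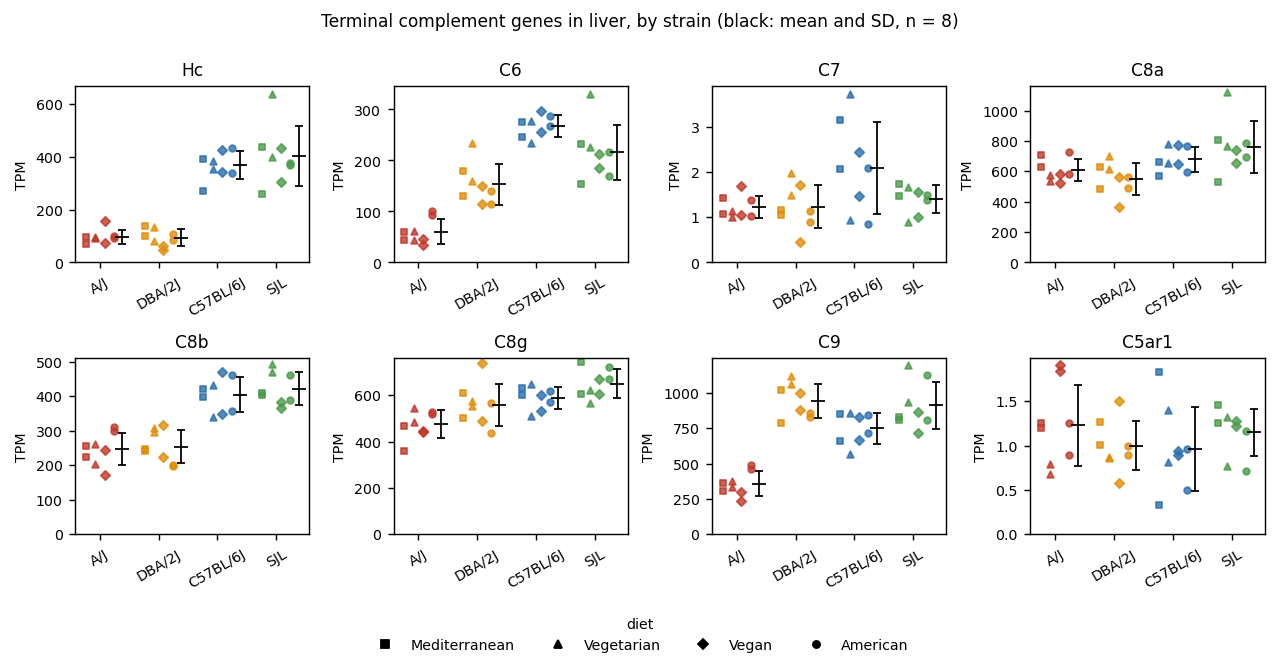
Level of each gene in every liver library (TPM, linear axis) by strain, with the mean and SD of 8 mice per strain; marker shapes are diets. A/J and DBA/2J lie below C57BL/6J and SJL in Hc and C8b without overlap, and A/J alone lies below the others in C6 and C9.

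Hepatocyte markers were not lower in A/J livers. The summed level of 7 hepatocyte markers was 147307 to 180792 TPM in A/J livers, against 103787 to 135703 TPM in DBA/2J, 91376 to 135822 TPM in C57BL/6J and 97663 to 152463 TPM in SJL livers. A/J livers were thus among the highest in these markers, and Alb stood there at 120.0% to 145% of the mean over all livers. TPM is a share of the library, so a high level of these markers lowers the shares of other genes, and the part of this in the A/J values was not tested. The A/J differences of C6 and C9 came from edgeR with library scaling, and both were called with RLE scaling, DESeq2 and limma as well.

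Across the 32 livers, the members that varied together within a strain were not led by Hc. Each point is 1 liver library, and the libraries share strain, diet and dissection. After the strain means were removed, Pearson's r was 0.864 between C9 and C8b, 0.772 between C9 and C6 and 0.700 between C6 and C8b, and between Hc and these 3 it was 0.0466 with C9, 0.0359 with C6 and -0.137 with C8b. Hc therefore shared the strain pattern of C8b but not its variation among mice of a strain. Among 10144 genes compared, the pattern most like Hc was that of Gm13449, with r = 0.989, or 0.875 within strains. Gm13449 is the antisense transcript that overlaps Hc, and without strand in the counting their reads cannot be told apart. Psen2, a presenilin, was also among the 3 genes most like Hc (0.904), and its r was -0.267 within strains. C8b was most like Serpina3k, a plasma serpin, at 0.949, or 0.927 within strains. C9 was most like Snap47 (0.924, or 0.632 within strains). C6 was most like Gm56555 (0.887), Mup20, a urinary pheromone protein (0.879), and Cd300ld (0.878), with 0.295, 0.606 and 0.0704 within strains. C8a was most like Cp, the plasma ferroxidase ceruloplasmin (0.776, or 0.738 within strains), and C8g like Cyp2d10, a cytochrome P450 (0.872, or 0.881 within strains).

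No diet difference was called in these genes. By edgeR, 0 of the 8 genes were called over the 4 diets in any tissue, where the share of all genes called was 0.0268% in liver, 0.0247% in brown fat and 0 elsewhere. DESeq2 and limma also called 0, and 0 of the 8 had an unadjusted p under 0.05 over the 4 diets. In liver, Hc averaged 219 TPM on Mediterranean, 273 TPM on vegetarian, 231 TPM on vegan and 238 TPM on American diet, each over all 4 strains. These means hold strains of very different levels, and the fitted difference, which compares mice within strains on the log scale, had the opposite sign for Mediterranean. The log2 difference from American was 0.05 (SE 0.161), 0.07 (SE 0.161) and -0.09 (SE 0.162), small beside the strain difference of -1.99. C6 differed by -0.12 (SE 0.171), -0.07 (SE 0.172) and -0.30 (SE 0.173) on the Mediterranean, vegetarian and vegan diets. The largest liver difference from American was that of C5ar1 on the Mediterranean diet, 0.50 (SE 0.261, unadjusted p = 0.0658). Against the American diet, called genes made up 0.0805% of all genes for Mediterranean, 0 for vegetarian and 0.0483% for vegan in liver, and none was a member. Outside liver, unadjusted p values under 0.05 were found for C5ar1 only, at 0.0176 in subcutaneous fat on the Mediterranean diet (0.52, SE 0.206) and 0.028 in muscle on the vegetarian diet (0.46, SE 0.198).

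The interaction of strain and diet was also not called for any of the 8 by edgeR in any tissue, where 0 of all genes were called in liver, muscle and subcutaneous fat, 0.0099% in brown fat and 0.22% in visceral fat. In simulated liver data with 1 combination of strain and diet changed, this edgeR test recovered 12% of 2-fold and 85% of 4-fold changes. In liver the missing calls therefore cannot decide on 2-fold changes in 1 combination, since most of these were missed. With no filter on low counts edgeR called 7 in muscle and 1 in liver. C6 in liver had the smallest unadjusted p, 0.00759 (adjusted p = 0.66). In A/J livers C6 stood at 44.7 and 60.3 TPM on Mediterranean, 44.8 and 60.8 TPM on vegetarian and 33.2 and 46.0 TPM on vegan diet, against 101 and 93.2 TPM on American diet. The 2 A/J mice on the American diet were above the other 6. The same 2 mice were highest in C9, which had 307 and 364 TPM on Mediterranean, 335 and 378 TPM on vegetarian and 232 and 297 TPM on vegan diet, against 492 and 464 TPM on American diet. They were also highest in C8b, at 300.0 and 312 TPM. This was read from the values of 8 mice, and DESeq2 and edgeR differed on it. DESeq2 called 4 of the 8 genes for the interaction in liver, 4 in brown fat and 3 in visceral fat. The shares of all genes called by DESeq2 and with no filter are not reported here, so these counts cannot be set against a background.

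**Figure D3:**
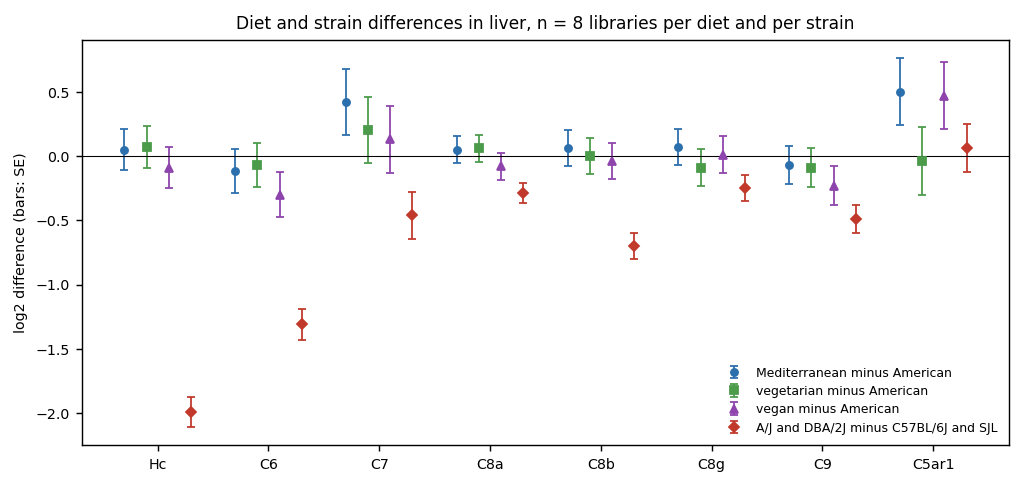
Log2 difference for each gene in liver with its SE as a bar, for each of the other 3 diets minus American and for A/J with DBA/2J minus C57BL/6J with SJL. The largest strain difference is that of Hc, at -1.99, while the diet differences lie within 0.50 of 0.

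Outside liver, Hc, the C8 chains and C9 were high in the libraries that were high in Alb. Pearson's r with Alb over the 32 libraries of a tissue was 0.853 to 0.932 for Hc, 0.934 to 0.977 for C8a, 0.913 to 0.959 for C8b, 0.881 to 0.932 for C8g and 0.926 to 0.971 for C9. For C6 it was 0.575 in subcutaneous fat and up to 0.858 in muscle, for C7 -0.468 to -0.0663 and for C5ar1 -0.455 to -0.138. The points share tissue and dissection, and all are relative to library size. Strain calls of the liver members outside liver moved with this. In SJL muscle, where 36.1% of all genes were called against the other 3 strains and 15.7% were lower, all 6 were lower, from -2.30 (SE 0.732, adjusted p = 0.0161) for C8g to -3.45 (SE 1.09, adjusted p = 0.0149) for C9. Of 7 hepatocyte markers, 6 were lower there too, with a median of -3.03, and their sum was 425 to 3026 TPM in SJL muscle, against 15.6 to 33816 TPM in A/J, 1557 to 55396 TPM in DBA/2J and 40.2 to 32569 TPM in C57BL/6J muscle. Without the libraries over 10% of liver Alb none of the 6 was called, with differences of -0.77 to -1.25. In DBA/2J subcutaneous fat, where 24.4% of all genes were higher than in the other 3 strains, 3 members were. Hc was higher by 3.34 (SE 1.11, adjusted p = 0.0175), C8b by 3.62 (adjusted p = 0.0473) and C8g by 2.29 (adjusted p = 0.00979). Without those libraries the 3 differences turned to -0.71, -0.59 and -0.18.

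The ratio of Hc to Alb differed between the strains in liver. Per 1000 Alb counts, liver had 1.64 to 3.40 Hc counts in A/J and 1.42 to 4.75 in DBA/2J, against 11.6 to 22.0 in C57BL/6J and 6.84 to 28.2 in SJL. The liver ranges of the C5-deficient strains and of the other 2 did not overlap. Among the 25 libraries outside liver with over 10% of liver Alb, 13 were inside the range of their own strain, 6 above and 6 below. The A/J and DBA/2J libraries that left their range were all above it, 3 of 5 and 3 of 7, and those of C57BL/6J and SJL all below it, 5 of 8 and 1 of 5. The muscle library of A/J mouse 17 had 18.6 Hc counts per 1000 Alb counts, while the brown fat library of the same mouse had 2.61. The visceral library of A/J mouse 24 had 14 and the subcutaneous library of DBA/2J mouse 34 had 13.0. Muscle of C57BL/6J mice 1, 9 and 8 had 1.86, 3.30 and 4.74, and visceral fat of C57BL/6J mice 13 and 16 had 4.37 and 4.33, and the subcutaneous library of SJL mouse 64 had 3.94. Of the 12 libraries that left their range, 9 lay within the liver range of the opposite pair of strains. The other 3 were visceral fat of A/J mouse 27, at 3.95, and muscle and subcutaneous fat of DBA/2J mouse 45, at 5.04 and 5.67, which lay between the ranges of the pairs or inside that of their own pair. The Hc ranges overlapped within each pair, so Hc could not tell the strains of a pair apart. By C9, 19 of the 25 libraries were inside the range of their own strain, and by C6 13. Brown fat of DBA/2J mouse 42 was inside by Hc, at 1.89, but had 2.38 C9 counts per 1000 Alb counts. Liver had 11.9 to 16.3 C9 counts in DBA/2J and 2.05 to 5.35 in A/J. The source of the liver transcripts in these libraries was not tested.

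**Figure D4:**
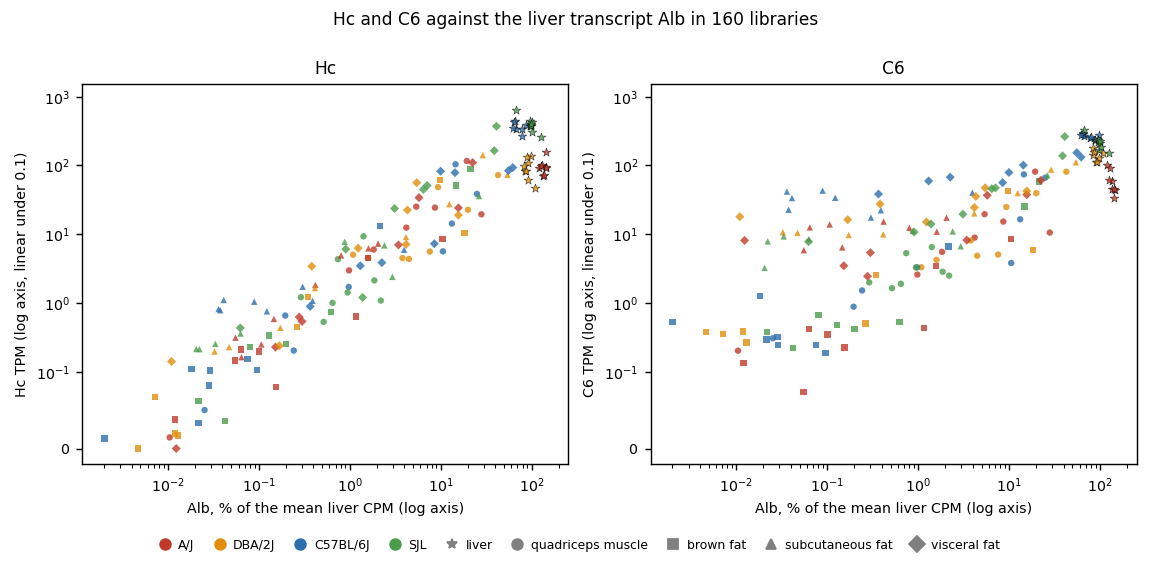
Hc (left) and C6 (right) in TPM (log axis that turns linear under 0.1) against Alb as a percentage of its mean liver level (log axis) in each of 160 libraries, coloured by strain with a marker shape per tissue. Liver Hc of A/J and DBA/2J lies below that of C57BL/6J and SJL, and outside liver Hc is higher where Alb is higher. C6 stays up in subcutaneous and visceral fat where Alb is low.

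Of the 6 liver members, C6 and C8g were above 1 TPM in every white fat library at or under 1% of liver Alb. C8g averaged 9.51 ± 2.82 TPM in the 22 subcutaneous and 10.4 ± 3.84 TPM in the 10 visceral libraries of this kind, and none was below 5.15 TPM. For C6, in subcutaneous libraries at or under 1% of liver Alb, the level averaged 11.1 ± 3.97 TPM in A/J (n = 6), 10.2 ± 0.434 TPM in DBA/2J (n = 4), 30.7 ± 10 TPM in C57BL/6J (n = 7) and 8.04 ± 2.96 TPM in SJL (n = 5). Each of the C57BL/6J libraries, at 17.5 to 43.1 TPM, was above those of the other 3 strains, which reached 15.3 TPM. The share of all genes set apart in this way is not reported here. Over all subcutaneous libraries the C6 range of C57BL/6J overlapped those of the other strains. With all libraries the test over strains was missed (adjusted p = 0.0577), and without those over 10% of liver Alb or against their depot it was passed (adjusted p = 8.71e-06, as by 59.2% of all genes), with C57BL/6J higher by 1.55 (SE 0.2, adjusted p = 3.19e-06). Without those over 1% the difference was 1.63 (SE 0.227, adjusted p = 5.5e-05). In visceral fat, C6 was lower in A/J and DBA/2J than in C57BL/6J and SJL by 2.06 log2 units (SE 0.583, adjusted p = 0.0141; 19.9% of all genes called), and by 1.56 (adjusted p = 0.0229) without the libraries over 10%. The call was lost with Alb as a covariate, at -1.0 (adjusted p = 0.0973), and without the libraries over 1%, at -0.93 (adjusted p = 0.352). Visceral C6 averaged 20.4 ± 21.9 TPM in A/J and 28.3 ± 12.3 TPM in DBA/2J, against 85.8 ± 39.6 TPM in C57BL/6J and 68.3 ± 89.4 TPM in SJL. In subcutaneous fat SJL was thus near A/J and DBA/2J, while in liver it was nearer to C57BL/6J. The test of a strain difference that varies with tissue was passed by C6 with all libraries (adjusted p = 0.00122) and without those over 10% (adjusted p = 5.79e-06), as by 78% of all genes in the first of these.

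Over strains, 2 of the 8 genes were called in muscle (background 43.4%), 2 in brown fat (55.2%), 4 in subcutaneous fat (63.5%) and 2 in visceral fat (37.1%). The members' shares were below these backgrounds. Without the 8 muscle libraries over 10% of liver Alb, 7 were called in muscle, where the background was then 55.4%. Hc, C6, the C8 chains and C9 were higher in A/J and DBA/2J than in C57BL/6J and SJL, as were 14.6% of all genes, by 1.5 (SE 0.414, adjusted p = 0.0104) for C8g to 3.06 (SE 0.799, adjusted p = 0.00766) for Hc. The libraries left out were 4 of C57BL/6J, 2 of A/J, 2 of DBA/2J and 0 of SJL. The 4 C57BL/6J libraries that were kept had 0.0254% to 0.977% of liver Alb. Those kept reached 8.67% in A/J and 9.36% in DBA/2J. All 8 of the DBA/2J muscle libraries were over 1% of liver Alb, against 3 of 8 in SJL. The strains thus still differed in Alb, and its part in these differences was not tested in this set. C7 and C5ar1 were called in muscle, brown fat and subcutaneous fat, and in those libraries they did not rise with Alb.

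C7 was highest in C57BL/6J in brown fat. It averaged 5.91 ± 2.13 TPM in A/J and 5.28 ± 1.57 TPM in DBA/2J, against 13.8 ± 5.02 TPM in C57BL/6J and 11.2 ± 3.54 TPM in SJL (SD, n = 8 each). The highest A/J and DBA/2J libraries, at 8.74 and 7.73 TPM, overlapped only the low end of the others, at 7.58 and 6.53 TPM. The log2 difference between the pairs was -1.13 (SE 0.146, adjusted p = 7.26e-07), where 22.9% of all genes were called. In muscle, C7 was low in A/J alone, at 9.30 ± 3.56 TPM, against 17.7 ± 4.95 TPM in DBA/2J, 20.2 ± 8.54 TPM in C57BL/6J and 22.8 ± 9.05 TPM in SJL (A/J minus the other 3, -1.12, SE 0.254, adjusted p = 0.00276; 11.3% of all genes called). In subcutaneous fat it was low in DBA/2J, at 54.9 ± 25.2 TPM, and high in C57BL/6J, at 143 ± 42.5 TPM, with A/J and SJL between them at 89.3 ± 41.6 and 92.3 ± 33.3 TPM. DBA/2J minus the other 3 was -0.98 (SE 0.243, adjusted p = 0.00229) and C57BL/6J minus the other 3 was 0.85 (SE 0.218, adjusted p = 0.00472), with 44.2% and 24% of all genes called. The DBA/2J difference was not called without the libraries over 1% of liver Alb (-0.76, adjusted p = 0.101). Mesothelium markers were higher in DBA/2J subcutaneous fat in 4 of 6 cases, with a median of 2.36, beside 24.4% of all genes. They summed to 4.1 to 29.2 TPM there. The sum was 6.26 to 15.2 TPM in A/J, 3.07 to 8.52 TPM in C57BL/6J and 4.45 to 6.76 TPM in SJL. The part of these markers in the C7 values was not tested. In visceral fat, with means of 110.0 to 157 TPM, C7 was not called. The C57BL/6J difference was larger in brown than in visceral fat by 1.27 log2 units (SE 0.298, adjusted p = 0.00188), a test that 9.52% of all genes passed.

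Markers of fibroblasts and adipose progenitors, cells known to make C7, moved with C7 in some of these cases. In A/J brown fat, 4 of 7 were lower, with a median of -0.76 (55.2% of all genes called over the 4 strains, the share for A/J not reported here). In C57BL/6J subcutaneous fat, where 24% of all genes were called, 4 of 7 were higher, with a median of 0.35. In DBA/2J brown fat, where C7 was lower by 0.97 (adjusted p = 8.54e-05; 33.7% of all genes called), 4 of 7 were higher, with a median of 0.49. In A/J muscle, where 11.3% of all genes were called, 1 of 7 was higher and none lower, with a median of 0.13. In DBA/2J subcutaneous fat, where C7 was lower, 1 was higher and 2 lower, with a median of -0.01 (44.2% of all genes called). In SJL subcutaneous fat all 7 were lower, with a median of -0.79 (42.7%), while C7 lay between DBA/2J and C57BL/6J, at 92.3 ± 33.3 TPM. In A/J subcutaneous fat, with C7 at 89.3 ± 41.6 TPM, 4 of 7 were higher, with a median of 0.48. The share of all genes called there is not reported here. In C57BL/6J brown fat, where C7 was highest, 2 of 7 were higher, with a median of 0.18 (25.4%). In SJL muscle, with C7 at 22.8 ± 9.05 TPM, 5 of 7 were higher, with a median of 0.49 (36.1%). The mean summed level of these markers in brown fat was 237 TPM in A/J, 458 TPM in DBA/2J, 360.0 TPM in C57BL/6J and 402 TPM in SJL. The part of these cells in the C7 values was not tested.

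C5ar1, the receptor of C5a, had a different leading strain in muscle than in fat. In muscle it reached 3.76, 5.02 and 7.42 TPM (lowest, median, highest) in SJL, against averages of 2.81 ± 0.827 TPM in A/J, 2.19 ± 0.521 TPM in DBA/2J and 3.01 ± 0.885 TPM in C57BL/6J. SJL minus the other 3 was 0.77 (SE 0.155, adjusted p = 0.00023). In subcutaneous fat SJL was the lowest, at 11.2 ± 3.84 TPM, with 25.5 ± 9.90 TPM in A/J, 13.1 ± 4.0 TPM in DBA/2J and 30.5 ± 10.4 TPM in C57BL/6J, and SJL minus the other 3 was -0.83 (SE 0.177, adjusted p = 0.000388; 42.7% of all genes called). The difference between these 2 differences was 1.47 (SE 0.251, adjusted p = 8.03e-07), or 1.32 (SE 0.242, adjusted p = 4.05e-06) without the libraries over 10% of liver Alb or against their depot. Of all genes, 39.8% passed this test with all libraries. C57BL/6J was higher in C5ar1 than its other 3 by 0.89 (adjusted p = 0.000119) in subcutaneous, 0.64 (adjusted p = 0.00154) in brown and 0.58 (adjusted p = 0.0204) in visceral fat, where 24%, 25.4% and 11.3% of all genes were called. The visceral difference was 1.00 without those libraries and was not called by limma (0.35, adjusted p = 0.251) or without the libraries over 1% (0.97, adjusted p = 0.789).

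Markers of myeloid cells, which carry the receptor, moved with C5ar1 in muscle. In SJL muscle, where 36.1% of all genes were called, all 8 were higher, with a median of 1.34. Their sum was 626 to 1050 TPM in SJL muscle. It was 286 to 496 TPM in A/J, 197 to 258 TPM in DBA/2J and 178 to 407 TPM in C57BL/6J muscle. In SJL subcutaneous fat, where 42.7% of all genes were called, 6 of 8 were lower, with a median of -0.35. In C57BL/6J subcutaneous fat, where 24% of all genes were called, 5 were higher, with a median of 0.39. Neutrophil markers did not follow the receptor in SJL subcutaneous fat, where 4 of the 6 tested were higher and 0 lower, with a median of 1.33. Their sum was 55.4 to 218 TPM in SJL subcutaneous fat, against 17.1 to 30.2 TPM in A/J, 54.3 to 117 TPM in DBA/2J and 44.9 to 501 TPM in C57BL/6J. In DBA/2J subcutaneous fat 5 of the 6 were lower and 1 higher, with a median of -1.37 (44.2% of all genes called). In A/J subcutaneous fat 4 of the 6 were lower, with a median of -1.29. The share of all genes called for A/J there is not reported here. In C57BL/6J subcutaneous fat 4 of the 6 were higher, with a median of 0.94, and in SJL muscle 2 of 6, with a median of 1.06. In brown fat the markers and the receptor parted in DBA/2J and C57BL/6J but not in A/J. In DBA/2J brown fat 7 of 8 markers were higher, with a median of 0.70, and C5ar1 was not called, at 0.29. In C57BL/6J brown fat C5ar1 was higher and 1 marker was lower. Of all genes, 33.7% and 25.4% were called in these comparisons. In A/J brown fat all 8 markers were lower, with a median of -0.78, and C5ar1 was lowest of the 4 strains, at 1.80 ± 0.394 TPM. The share of all genes called for A/J in brown fat is not reported here, and 55.2% were called over the 4 strains. Without the libraries over 1% of liver Alb, the A/J difference of C5ar1 was -0.50 and not called by edgeR (adjusted p = 0.0631). The part of cell numbers in these values was not tested. In visceral fat the genes most like C5ar1 over 32 libraries were C1qb, a complement subunit made by macrophages (r = 0.857), Mall (0.819) and Myl12a (0.814), and those most like C7 were Ppp2r1b (0.789), Hs2st1 (0.787) and Fam161a (0.786).

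**Figure D5:**
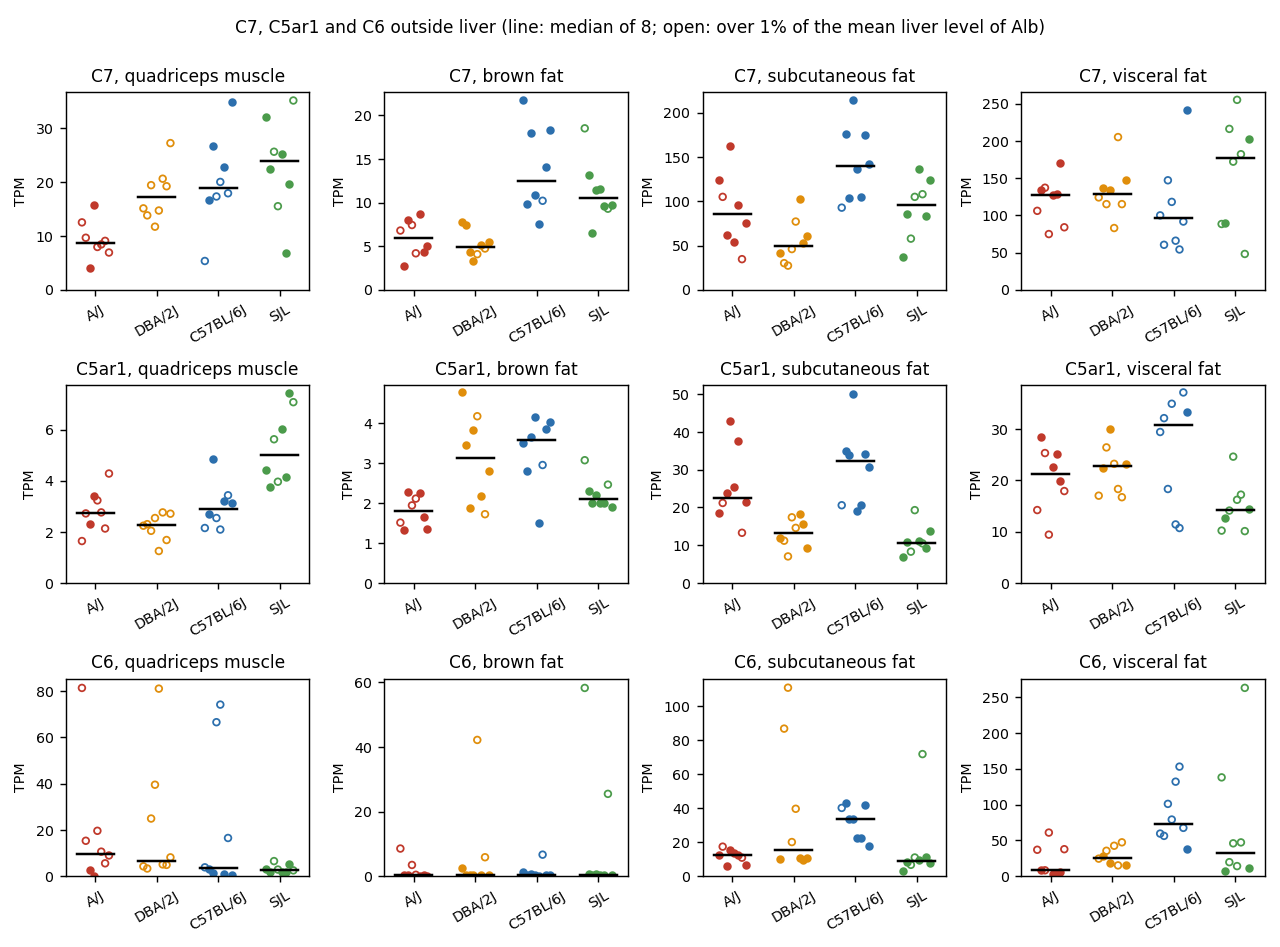
C7, C5ar1 and C6 in muscle, brown, subcutaneous and visceral fat (TPM, linear axis from 0) by strain. Each point is a library, open if over 1% of the mean liver level of Alb, and the line is the median of 8. SJL leads C5ar1 in muscle and is lowest in subcutaneous fat, A/J is low in muscle C7, and C57BL/6J leads subcutaneous C6.

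The rest of the pathway gives the setting. Of 44 other complement genes listed, 42 were tested in liver and 34 differed over strains by edgeR, against the background of 51.5%; none differed over diets. Between the 2 pairs of strains, 7 were higher and 18 lower in A/J and DBA/2J livers, with a median of -0.17. Of all genes, 15.9% were lower in this comparison, and the share that was higher is not reported here. The 4 regulators of the pore were tested as a list of their own: Cd59b, a membrane inhibitor of C9, was higher in A/J and DBA/2J by 0.74 (SE 0.103, adjusted p = 1.03e-06), and Cd59a, its paralogue, was not called over strains (adjusted p = 0.288). Clu, which binds the fluid-phase complex, passed over strains (adjusted p = 0.0362), and Vtn, which does the same, did not (adjusted p = 0.0756). C5ar2, the second receptor of C5a, averaged 0.358 ± 0.0521 TPM in A/J and 0.334 ± 0.152 TPM in DBA/2J livers, against 1.26 ± 0.423 TPM in C57BL/6J and 0.790 ± 0.292 TPM in SJL livers (adjusted p over strains = 1.41e-08). In subcutaneous fat C5ar2 was at 0.430 ± 0.177, 0.345 ± 0.162, 4.08 ± 1.01 and 0.351 ± 0.128 TPM in A/J, DBA/2J, C57BL/6J and SJL (adjusted p = 8.15e-13), so that C57BL/6J led both C5a receptors there.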

How the data were processed

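RNA of 5 tissues was sequenced in 160 libraries from 35 mice. Per the labels' protocols, libraries were made with a stranded mRNA kit from RNA isolated with TRIzol and RNeasy Micro columns. Per the submitters' processing notes and the series' design text, reads were checked with FastQC, trimmed with Trim Galore, aligned to GRCm39 with HISAT2 and counted per gene with HTSeq. The sources used here give no versions, annotation release or strand setting. Counts as deposited are estimated counts, with reads of several positions shared fractionally (74.4% of values above 0 were whole to 1e-06), so genes with near-identical copies are uncertain. All levels are the TPM that the authors deposited, whose gene lengths are of unstated origin. Of 56980 identifiers, 56236 were named with GENCODE vM39, where the tables gave identifiers only; the promoters and the Hc exon were read from GRCm39 with the same annotation.

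In R 4.3.3, estimated counts were rounded and tested with edgeR 4.0.16. filterByExpr selected genes on the 16 combinations of strain and diet (minimum count 10, minimum total 15), libraries were scaled by TMM, and quasi-likelihood tests with robust dispersion were run on all genes. Strain and diet were tested in an additive model per tissue, the interaction in a model of all 16 combinations, and tissues in a model over 160 libraries. P values were adjusted by Benjamini-Hochberg over all genes, and those under 0.05 were called. Strain and diet contrasts share libraries. The model with tissue by strain terms was added after the data were seen. The alternatives were RLE scaling, no filter, DESeq2 1.42.0, limma 3.58.1 on log2 of TPM plus 1 (mean of at least 1 TPM), the model of all 16 combinations, log2 CPM of Alb as a covariate, fits without libraries over 1% or 10% of liver Alb (the second also without those against their depot), leaving out single libraries, and a block for the mouse. Likeness to a member was Pearson's r of log2 values within 1 tissue, and names were taken from the 3 genes with the highest r, some of which are not reported here. The other complement genes named with levels were those with the smallest p over strains per tissue. Marker lists held 8 hepatocyte genes (7 matched), 8 myeloid, 7 neutrophil, 7 fibroblast and 6 mesothelium genes. Tests were checked on simulated data, where the interaction test in liver missed most 2-fold changes in 1 combination of strain and diet. Python 3.11.15 with matplotlib 3.10.9 drew the figures.

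The members and lists were chosen with earlier results of these data known. Mouse numbers of the labels link tissues of 1 animal, with 29 to 32 mice in both tissues of a pair; deviations from the group means correlated over genes at a median r of -0.0417 to 0.0981 between tissues. Within a tissue each library is a different mouse, and p values measure the spread between these libraries. The fits over all 160 libraries treated tissues of 1 mouse as independent, except in the fit with the mouse as a block.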

Additional observations from a re-analysis of the deposited data

Results flagged for a closer look

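Single libraries were checked in 160 groups, each gene in the 8 mice of a strain and tissue. In 16 groups a library lay far from the other 7. Chance gives about 1 in 20 for independent groups of normally distributed values. Genes of 1 library are not independent, and many of the 16 fell on the same libraries, so their number cannot be set against that rate. In liver, Hc of A/J mouse 30, on the vegan diet, was at 157 TPM, against a group median of 94.6 TPM. In C57BL/6J brown fat, mouse 16, on the vegan diet, was highest in all 6 liver members, with Hc at 13.1, C6 at 6.67, C8a at 19.7, C8b at 8.74, C8g at 31.5 and C9 at 21.6 TPM, and its Alb was 2.16% of the liver mean. In C57BL/6J subcutaneous fat, mouse 1, on the American diet, was highest in 5 of them, with Hc at 5.96, C8a at 30.9, C8b at 14.6, C8g at 40.6 and C9 at 59.8 TPM, and its Alb was 3.97%. In SJL subcutaneous fat, mouse 64, on the vegan diet, had C6 at 71.9 and C8g at 170.0 TPM and Alb at 26.5%. Low values stood out for C7 in muscle of C57BL/6J mouse 1, at 5.34 TPM against a median of 18.9 TPM, and for C5ar1 in brown fat of C57BL/6J mouse 13, at 1.49 TPM against 3.57 TPM.

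The strain differences varied with tissue for all 8 genes in edgeR's test of tissue by strain terms over 160 libraries, as they did for 78% of the 21166 genes tested. The adjusted p was 1.28e-08 for C5ar1, 5.54e-05 for C8g, 0.000141 for C7, 0.00122 for C6, 0.00206 for Hc, 0.00234 for C8b, 0.00674 for C8a and 0.0097 for C9. Without the libraries over 10% of liver Alb or against their depot it was 2.83e-08 for C5ar1, 5.79e-06 for C6, 0.000616 for C7 and 0.0039 for Hc.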

How the results depend on the processing

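The calls printed for liver Hc, C6, C9 and C8b kept their direction and their side of the threshold under the other scaling, filter, tools and 16-combination model. The number of members called changed as follows, given here without the share of all genes called under each setting. With DESeq2, 4 were called for the interaction in liver, 4 in brown fat and 3 in visceral fat, and over strains 7 in liver, 6 in muscle and 8 in subcutaneous fat. With no filter on low counts, 1 was called for the interaction in liver and 7 in muscle, and over strains 7 in liver, 3 in subcutaneous fat and 1 in visceral fat. Limma called 3 over strains in subcutaneous fat, as did the fit with Alb as a covariate, and 1 in visceral fat, and the 16-combination model called 5 in liver. In subcutaneous fat limma and the Alb covariate lost Hc and C8g and gained C6. Without libraries over 10% of liver Alb, 7 were called over strains in muscle; without those over 1%, 2 in subcutaneous and 0 in visceral fat, by edgeR on 10 libraries. In DBA/2J minus the other 3 in subcutaneous fat, Hc became -0.17 with Alb as a covariate, -0.71 without libraries over 10% and -0.87 without those over 1%, C8b became -0.069, -0.59 and -0.29 in the same order, and C8g became 0.39 with the covariate, -0.18 without those over 10% and -0.31 without those over 1%. Leaving out 1 library in turn gave 5 to 7 members called over strains in liver, 2 to 5 in muscle, 2 to 8 in subcutaneous and 0 to 2 in visceral fat; it was A/J mouse 24 in muscle, and C57BL/6J mouse 1, DBA/2J mice 34 and 38 and SJL mouse 64 in subcutaneous fat, that moved the count by over 1.5 times, and 21 of 32 libraries in visceral fat. The cause was not tested. With the mouse as a replicate block, 6 of the 8 genes were higher in liver, as without it, and the pairing changed none of these 8 calls; no other result was fitted with the block. Strain tests in muscle without libraries over 1% could not be fitted, since no DBA/2J library was left. RLE scaling changed 0 of 140 results. Depth limits C7 and C5ar1 in liver, with as few as 13 and 9 counts.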

Other observations

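Some other complement genes also differed between strains. Those named here were taken from the smallest p over strains in each tissue, so their sizes cannot be compared with those of the members. In liver, Cfhr2, a factor H related gene, was at 151 ± 20.8, 147 ± 19.1, 445 ± 70.3 and 194 ± 61.7 TPM in A/J, DBA/2J, C57BL/6J and SJL (SD, n = 8 each). C1rb, a protease of the first component, was at 39.1 ± 3.62, 32.0 ± 3.37, 2.46 ± 1.75 and 43.8 ± 5.17 TPM in the same strains, and C1s2, its partner protease, at 44.5 ± 5.15, 39.4 ± 9.30, 2.00 ± 1.86 and 54.8 ± 8.86 TPM. Both were also low in C57BL/6J subcutaneous fat, at 1.80 ± 0.744 TPM for C1rb and 1.94 ± 0.900 TPM for C1s2. These genes have near-identical copies, among which fractional counting can divide reads. C2, which joins the classical convertase, was highest in SJL liver, at 70.9 ± 4.15 TPM, against 33.1 to 38.5 TPM in the other 3 strains.

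In muscle, C3ar1, the receptor of C3a, was at 9.58 ± 2.88 TPM in SJL, against 2.81 ± 0.647 TPM in A/J, 2.22 ± 0.320 TPM in DBA/2J and 1.96 ± 0.726 TPM in C57BL/6J (adjusted p = 1.09e-10). C1qa, a subunit of C1q, was at 216 ± 35.4 TPM in SJL, against 71.9 to 83.5 TPM in the others. Cd55, which takes apart the convertases on cells, went the other way, at 8.15 ± 1.57 TPM in SJL, against 35.3 ± 5.78 TPM in A/J, 29.8 ± 5.40 TPM in DBA/2J and 20.4 ± 4.45 TPM in C57BL/6J (adjusted p = 3.5e-15). In DBA/2J brown fat, Itgax, a chain of complement receptor CR4, was at 9.49 ± 5.63 TPM, against 0.593 to 1.25 TPM in the other 3 strains, and Itgam, of CR3, at 3.44 ± 1.16 TPM, against 1.08 to 1.73 TPM. Over strains, 14 of the 44 genes were called in muscle, 20 in brown fat, 31 in subcutaneous and 21 in visceral fat, against 43.4%, 55.2%, 63.5% and 37.1% of all genes. For the interaction with diet, 2 were called in visceral fat, C1rb (adjusted p = 0.00346) and C1s2 (adjusted p = 0.0134), against 0.22% of all genes there. In the other 4 tissues 0 were called.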
